A study of Mus musculus with 35 samples.

Results

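The mouse Ms4a family, without the IgE receptor chain gene Ms4a2, was followed through sorted innate immune cells. The members were 9 genes chosen by symbol, namely Ms4a3, Ms4a4b, Ms4a4c, Ms4a4d, Ms4a6b, Ms4a6c, Ms4a6d, Ms4a7 and Ms4a8a, out of 18193 genes with a single symbol on the array. They were read by 16 of the 45101 probe sets, and all 9 were measured. The rule takes them by symbol alone and uses no measured value, though the list was drawn up with earlier results of these data known.

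Ms4a genes encode small proteins that cross the membrane 4 times, and most of them lie in 1 cluster on mouse chromosome 19. The best known relatives are Ms4a1, which encodes the B cell antigen CD20, and Ms4a2, which encodes the beta chain of the high-affinity IgE receptor of mast cells and basophils. The other members are mainly genes of blood cells. Ms4a3 is known from granulocyte and monocyte progenitors, Ms4a4b and Ms4a6b from T cells, Ms4a7 and Ms4a6d from macrophages, and Ms4a8a from macrophages of the alternatively activated kind.

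Total RNA from flow-sorted cells of male C57BL/6J mice, 8 weeks old, was hybridised to 35 Affymetrix arrays, 1 sample each. The animals carried no transgene or agent that the labels name. A first set of 20 arrays held 2 arrays of SatM, a monocyte that the labels link to fibrosis, and 2 of inflammatory monocytes. It also held 4 of SMP, named as the progenitor of SatM, 1 of GMP (granulocyte-monocyte progenitor), 1 of MDP (monocyte, macrophage and dendritic cell progenitor) and 4 of cMoP (common monocyte progenitor), all from bone marrow, with 2 each of basophils, eosinophils and neutrophils from spleen. Of the SMP and cMoP arrays, 2 of each were titled WT, a word the labels do not explain. A tissue panel of 15 arrays held 2 of M2-like resident macrophages, 2 of lung macrophages, 2 of Msr1-dull Ceacam1-dull cells, 4 of SatM (spleen, bone marrow, blood and lung), 3 of Msr1-negative Ceacam1-negative cells and 2 of other Ly6C-negative monocytes, each from a named tissue. Titles of the lung arrays name BAL, that is, lavage of the lung, and the 2 lung macrophage arrays bear different titles. The labels do not say whether arrays of 1 group came from separate animals, so p-values measure only the spread between arrays. In the panel each cell type had 1 array per tissue, apart from the 2 lung macrophage arrays. Its p-values therefore rest on the spread that the cell type and tissue terms of the fit leave over, not on replicate arrays.

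Along the cluster the genes lay in the order Ms4a8a, Ms4a7, Ms4a4c, Ms4a4b, Ms4a6c, Ms4a6b, Ms4a4d, Ms4a6d, Ms4a2 and Ms4a3, with other family genes between some of them (RefSeq, GRCm38.p6). Promoter windows running from 250 bases before the start of the gene to 50 after it were at hand for 8 members, with 9 windows in all because Ms4a7 had 2. The 4 shown are those of neighbouring genes with alike names, whose levels are compared later. They come from RefSeq on build GRCm38.p6, and capitals mark the ETS core, GGAAGT or its reverse complement ACTTCC, the letters read by myeloid ETS factors such as PU.1.
Ms4a4c promoter (chr19:11407411-11407710, plus strand): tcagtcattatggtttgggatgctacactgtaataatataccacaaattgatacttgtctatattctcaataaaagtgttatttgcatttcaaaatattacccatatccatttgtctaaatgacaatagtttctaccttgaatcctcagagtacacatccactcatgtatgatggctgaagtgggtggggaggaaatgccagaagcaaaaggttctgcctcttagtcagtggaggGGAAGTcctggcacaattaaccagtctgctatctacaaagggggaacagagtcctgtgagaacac
Ms4a4b promoter (chr19:11443308-11443607, plus strand): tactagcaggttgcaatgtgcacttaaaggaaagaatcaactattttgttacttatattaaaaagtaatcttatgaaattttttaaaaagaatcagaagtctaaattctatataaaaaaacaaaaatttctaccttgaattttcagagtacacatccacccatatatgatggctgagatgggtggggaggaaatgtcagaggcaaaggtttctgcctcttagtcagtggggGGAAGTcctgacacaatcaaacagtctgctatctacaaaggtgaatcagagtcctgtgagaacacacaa
Ms4a6c promoter (chr19:11469118-11469417, plus strand): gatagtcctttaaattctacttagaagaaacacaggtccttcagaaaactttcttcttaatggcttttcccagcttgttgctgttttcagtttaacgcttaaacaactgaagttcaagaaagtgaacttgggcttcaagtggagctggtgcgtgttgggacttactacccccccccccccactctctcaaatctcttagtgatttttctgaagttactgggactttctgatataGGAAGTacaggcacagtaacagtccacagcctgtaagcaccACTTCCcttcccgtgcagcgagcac
Ms4a6b promoter (chr19:11518309-11518608, plus strand): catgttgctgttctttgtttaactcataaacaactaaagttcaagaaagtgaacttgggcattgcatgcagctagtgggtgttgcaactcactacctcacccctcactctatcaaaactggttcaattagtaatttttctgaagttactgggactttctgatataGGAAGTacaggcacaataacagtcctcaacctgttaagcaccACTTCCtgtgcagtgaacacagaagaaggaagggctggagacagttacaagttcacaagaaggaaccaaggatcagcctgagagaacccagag

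Between Ms4a4c and Ms4a4b, 230 of 300 bases were identical in a global alignment, and between Ms4a6c and Ms4a6b, 192 of 300. In the other 34 pairs of windows, 143 to 173 bases were identical. The ETS core stood 15 bases before the start in Ms4a4c and 19 before it in Ms4a4b. An ETS core was in 7 of the 9 windows, against 23.8% of the 32851 promoters of the reference. By gene, 7 of 8 members had it in a window, and Ms4a8a did not. Ms4a4c with Ms4a4b, and Ms4a6c with Ms4a6b, hold ETS cores in stretches that they share. Their windows are therefore not separate counts to set against the share of all promoters. The C/EBP letters TTGCNNAA, searched on both strands, were in the windows of 2 members, Ms4a3 and Ms4a4d, against 10.8% of all promoters, and in Ms4a4d the match shared 1 base with an ETS core. The interferon response element of IRF factors and the GATA letters AGATAA, both also searched on either strand, were in 0 of the 8, against 3.44% and 11.2%. These matches describe letters in a window, not binding sites.

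Values are the deposited log2 expression values, and differences are in the same log2 units. The lowest value, 2.30, is called the floor, and 43.6% to 48.3% of an array was there. A gene is said to be called when its fitted difference in limma was at least 1 and its Benjamini-Hochberg adjusted p, taken over all genes tested, was under 0.05. Levels are compared within a gene across cells and never between genes, since probe sets differ in brightness. In these sorted bulk samples, fewer cells that carry an mRNA and less of it per cell cannot be told apart.

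Some arrays carried genes of other cell types, from marker lists written for this work, and their part in the results was not tested. The 3 Msr1-negative arrays had 11 of 11 measured NK cell genes over 6, with list means of 10.99 in spleen, 11.85 in bone marrow and 12.45 in blood, while the monocyte receptor gene Csf1r was at 9.49 in spleen, 3.67 in bone marrow and at the floor in blood. The panel's bone marrow SatM array had a mean of 12.30 over 4 primary granule genes (Mpo, Elane, Prtn3 and Ctsg), against 2.80 and 3.87 in the 2 bone marrow SatM arrays of the first set. The same mean was 12.96 in bone marrow Msr1-dull cells and 10.85 in bone marrow M2-like macrophages. B cell genes, which include Ms4a1, averaged 7.67 in the spleen SatM array and 7.64 in spleen M2-like macrophages. Ms4a1 itself was also at 6.72 and 7.97 in bone marrow and blood SatM and at 7.55 in bone marrow M2-like macrophages. It had 7.73 in spleen Msr1-negative cells and 9.80 and 8.36 in other Ly6C-negative cells of spleen and blood. The 2 labels for lung macrophages differed, with alveolar macrophage genes averaging 11.34 in 1 array and 7.63 in the other. Nonclassical monocyte genes averaged 11.32 and 11.45 in SatM of the first set and 10.36 to 11.18 in the panel's SatM from spleen, bone marrow and blood, but 7.17 in lung SatM.

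Ms4a3, whose protein is known as a brake on the cell cycle of blood progenitors, was a gene of progenitors, basophils and eosinophils. It measured 13.76 in GMP, 11.88 in MDP, 11.04, 11.38, 11.97 and 12.15 in SMP and 9.15, 10.54, 10.84 and 11.33 in cMoP. Basophils had 12.92 and 13.53, eosinophils 12.20 and 12.26, and neutrophils 5.88 and 7.90. The mature monocytes were low, with 4.80 and 5.95 in SatM and 2.73 and 4.71 in inflammatory monocytes.

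In the first set, each monocyte type was far below the progenitor that the study pairs it with. SatM lay 6.58 ± 0.73 (SE) below SMP, as a fitted log2 difference of -6.58 (adjusted p = 1.72e-05). Inflammatory monocytes differed from cMoP by -7.07 ± 0.73 (adjusted p = 2.85e-05). In both comparisons the arrays of the groups did not overlap. SMP and cMoP differed by 1.17 (95% interval -0.03 to 2.38, adjusted p = 0.106), and SatM and inflammatory monocytes by 1.65 (-0.05 to 3.36, adjusted p = 0.232), so neither pair was called. Over the 7 groups of the first set with more than 1 array, the order of means was basophils 13.22, eosinophils 12.23, SMP 11.63, cMoP 10.46, neutrophils 6.89, SatM 5.38 and inflammatory monocytes 3.72. The array ranges of SMP and cMoP overlapped, and so did those of neutrophils and SatM.

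In the tissue panel, Ms4a3 was high in 3 of the 4 bone marrow arrays and low nearly everywhere else. It measured 12.92 in Msr1-dull cells, 12.45 in SatM and 9.61 in M2-like macrophages from bone marrow, against 2.85 in Msr1-negative cells of the same tissue. Spleen SatM had 6.60, spleen other Ly6C-negative cells 3.98, and the remaining panel arrays 2.62 to 2.73. The primary granule genes named above were high in the same 3 bone marrow arrays and at 6.30 in spleen SatM. The bone marrow SatM arrays of the first set, with 4.80 and 5.95, were thus far from the 12.45 of the panel's. That panel array lay above every SMP array and was not part of the fit of SatM against SMP. Over the 23 group means, the genes most like Ms4a3 were Ctsg (r = 0.98), Mpo (r = 0.97) and Klhl23 (r = 0.95), of which Ctsg and Mpo encode granule proteins of myeloid progenitors.

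**Figure D1:**
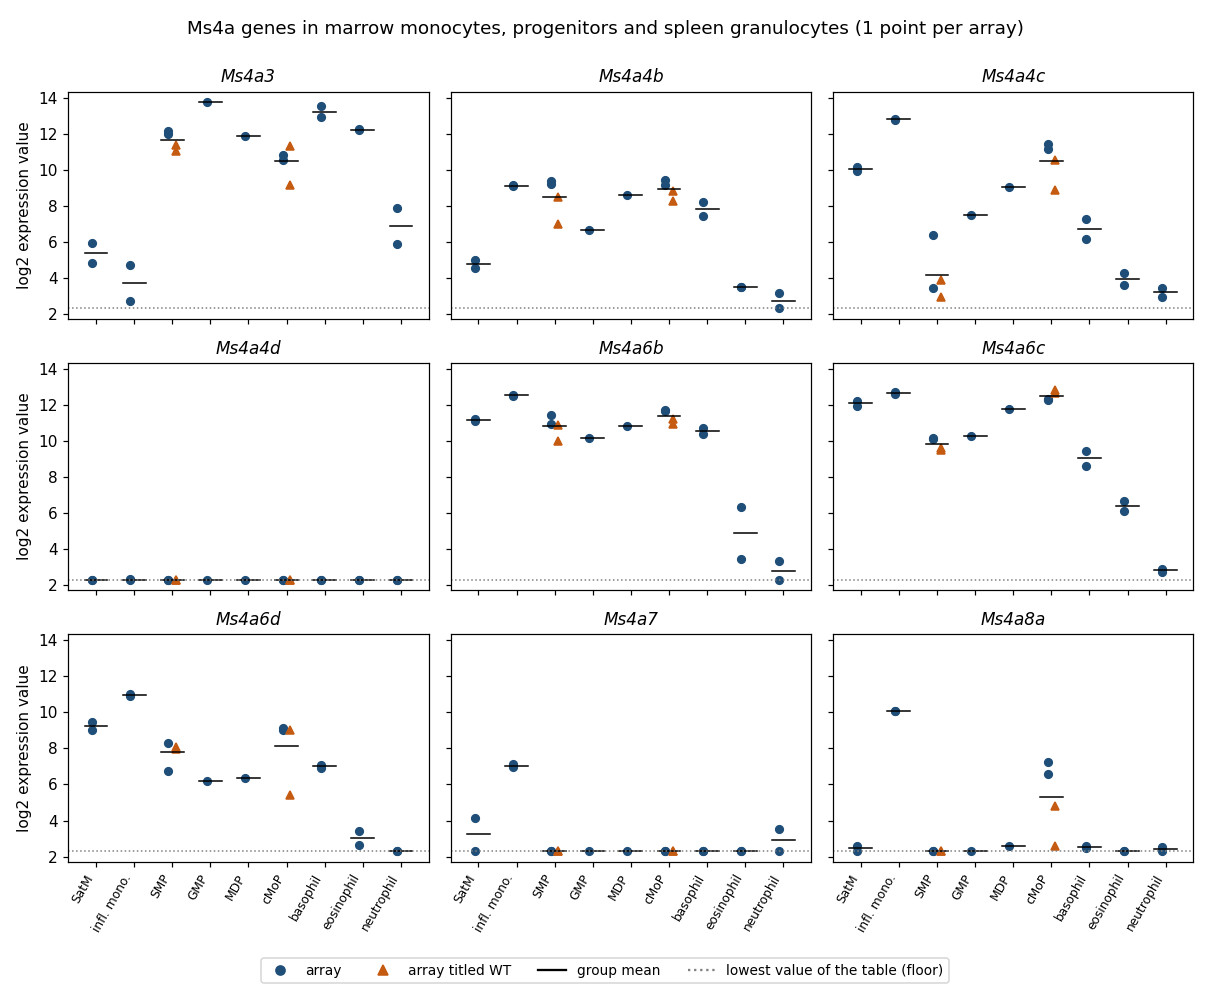
Log2 expression values (vertical axis) of the 9 members in the first set of 20 arrays, 1 panel per gene, with cell types along the horizontal axis, 1 point per array, triangles for arrays titled WT and a line at the mean over all arrays of the cell type. Ms4a3 is at 9.15 or higher in all progenitors, basophils and eosinophils and at 5.95 or lower in SatM and inflammatory monocytes, while Ms4a8a reaches 10.10 and 10.11 in inflammatory monocytes and at most 2.61 in SatM.

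Ms4a4b, whose protein is known as a modulator of T cell activation, separated SatM from inflammatory monocytes. It measured 4.52 and 4.99 in SatM, against 9.07 and 9.14 in inflammatory monocytes, and 6.97, 8.49, 9.20 and 9.39 in SMP, against 8.29, 8.85, 9.15 and 9.46 in cMoP. The fitted difference was -4.35 ± 0.49 (SE) for SatM minus inflammatory monocytes (adjusted p = 8.97e-05) and -4.33 ± 0.46 for SatM minus SMP (adjusted p = 1.12e-05). The arrays did not overlap in either pair. Inflammatory monocytes and cMoP differed by -0.40 (-1.40 to 0.60, adjusted p = 0.697), and SMP and cMoP by -0.42 (-1.18 to 0.34, adjusted p = 0.356). MDP had 8.59 and GMP 6.66. Basophils had 8.21 and 7.42, eosinophils 3.49 in both arrays and neutrophils 3.15 and 2.30, a difference of 5.10 between basophils and neutrophils (adjusted p = 4.10e-06).

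The highest Ms4a4b values of the whole series came from the Msr1-negative cells of the panel. These had 12.20 in spleen, 13.38 in bone marrow and 13.53 in blood, against 7.82, 6.43 and 7.52 for SatM of the same tissues. The fitted difference for SatM minus Msr1-negative cells was -6.30 ± 1.07 (SE, adjusted p = 0.00981), and it was negative within each of the 3 tissues (-4.38, -6.95 and -6.00). The NK cell genes were high in exactly these 3 arrays, as the plot of Ms4a4b against their mean shows, and T cell genes averaged 5.12 to 6.88 there. Without the bone marrow Msr1-negative array the adjusted p was 0.0546, and without the blood SatM array 0.0545, with differences of -5.22 and -6.36. Elsewhere in the panel Ms4a4b ran from 2.30 in 1 lung macrophage array to 8.88 in spleen M2-like macrophages, with 4.67 in lung SatM. A second probe set of Ms4a4b was at the floor on 24 of 35 arrays. It too was lower in SatM than in Msr1-negative cells (-3.42, adjusted p = 0.00505 over all probe sets). In SatM and inflammatory monocytes of the first set it was at the floor on all 4 arrays and could show no difference between them.

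**Figure D2:**
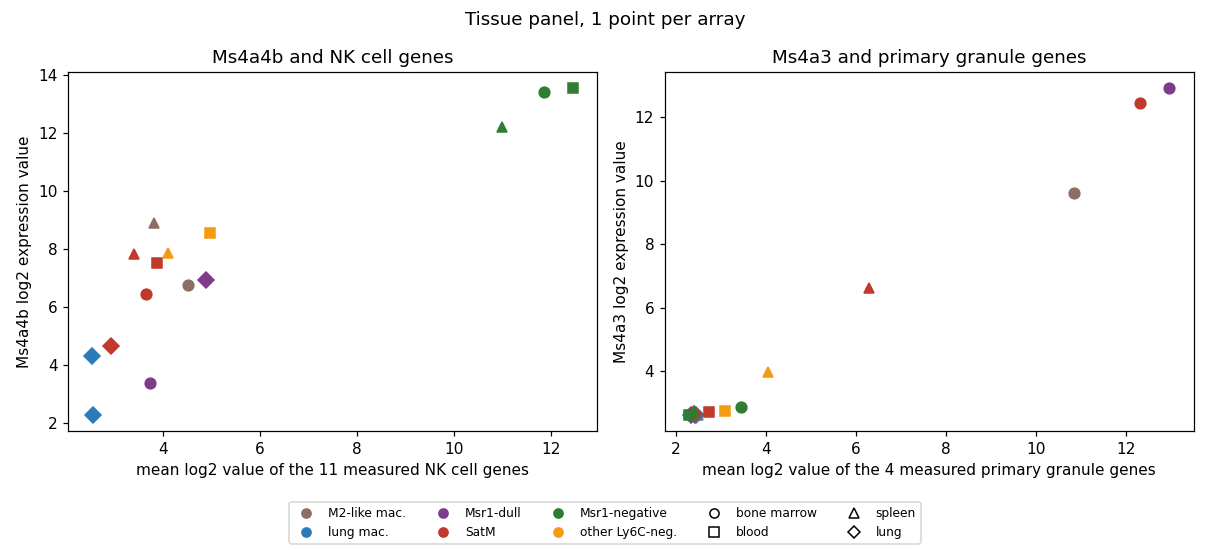
Log2 values of Ms4a4b (left, vertical axis) against the mean log2 value of 11 NK cell genes, and of Ms4a3 (right) against that of 4 primary granule genes, 1 point per panel array, coloured by cell type and shaped by tissue. The 3 Msr1-negative arrays lie at 10.99 to 12.45 on the NK axis and 12.20 to 13.53 for Ms4a4b, and the 3 bone marrow arrays of Msr1-dull, SatM and M2-like cells lie at 10.85 or higher on the granule axis and 9.61 or higher for Ms4a3.

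Ms4a4c, a close relative of Ms4a4b in sequence, had another pattern. It measured 9.91 and 10.17 in SatM, against 12.77 and 12.84 in inflammatory monocytes, and 2.96, 3.45, 3.89 and 6.39 in SMP, against 8.89, 10.55, 11.13 and 11.41 in cMoP. No SMP array reached the lowest cMoP array. The fitted difference was -6.32 ± 0.56 (SE) for SMP minus cMoP (adjusted p = 1.51e-06) and 5.11 ± 0.73 for SatM minus SMP (adjusted p = 0.000153). Ms4a4c was thus low in the progenitor named for SatM and high in SatM, while Ms4a4b was the reverse. The difference of -2.77 ± 0.79 between SatM and inflammatory monocytes was close to the threshold (adjusted p = 0.0416). It was not called when any 1 of the 4 arrays of this comparison was left out, with adjusted p of 0.129 to 0.196 and differences of -2.64 to -2.89.

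The SMP minus cMoP difference of Ms4a4c was as large in the arrays titled WT (-6.29) as in the others (-6.35), with adjusted p of 0.0604 and 0.0676 when each pair of groups was fitted apart. MDP had 9.06 and GMP 7.49. Basophils had 7.25 and 6.13, eosinophils 3.58 and 4.27, and neutrophils 2.96 and 3.45, with a basophil minus neutrophil difference of 3.48 (adjusted p = 0.00311). In the panel, other Ly6C-negative cells had 11.96 in spleen and 12.35 in blood, the 4 SatM arrays 9.71 to 10.47, and lung Msr1-dull cells 11.05. The M2-like macrophages were lower, at 6.17 in spleen and 5.11 in bone marrow, and the lung macrophages had 3.53 and 8.65. For M2-like macrophages minus SatM the difference was -4.12 (-7.94 to -0.30, adjusted p = 0.186). Both probe sets of Ms4a4c rose and fell together (r = 0.99 over 35 arrays), but each is of a kind that can read closely related transcripts, so Ms4a4c values are uncertain to that extent. The gene most like it over the 23 group means was S100a4 (r = 0.92), a calcium-binding protein gene of monocytes, then Ptpro (r = 0.88) and Cd40 (r = 0.85).

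Ms4a4d was the least detected member. It was at the floor on 29 of 35 arrays, reached at most 2.32 in the first set and so was not tested there. In the panel it measured 5.13 in blood SatM, 4.05 in spleen SatM, 2.60 in bone marrow SatM and 2.30 in lung SatM, against the floor in all 3 Msr1-negative arrays. The only other array clearly above the floor was that of other Ly6C-negative cells from blood, at 3.29. Ms4a4d passed the filter of the panel fit through the SatM arrays themselves, so its fitted differences that involve SatM are not read as tests.

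In the first set, the 3 Ms4a6 genes were alike in being high in SatM and inflammatory monocytes and lowest in neutrophils. Ms4a6b and Ms4a6c were also at 9.51 or higher in all progenitor arrays, which Ms4a6d was not. Ms4a6b, whose protein is known to help costimulation in T cells, measured 11.10 and 11.25 in SatM, against 12.48 and 12.59 in inflammatory monocytes, and 10.01, 10.90, 10.94 and 11.46 in SMP, against 10.94, 11.23, 11.68 and 11.75 in cMoP. GMP had 10.17, MDP 10.84 and basophils 10.74 and 10.41. Eosinophils had 6.33 and 3.43, and neutrophils 2.30 and 3.32. Among the progenitors and monocytes none of its differences was called with this probe set, with SatM minus inflammatory monocytes at -1.36 (-2.82 to 0.09, adjusted p = 0.252).

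Against neutrophils, Ms4a6b was 7.76 ± 0.67 (SE) higher in basophils (adjusted p = 1.54e-06) and 2.07 ± 0.67 higher in eosinophils (adjusted p = 0.0233). The eosinophil difference fell to 0.62 without eosinophil array 1 (adjusted p = 0.290) and was 1.56 without neutrophil array 1 (adjusted p = 0.186). The second probe set of Ms4a6b did not always go with the first (r = 0.81 over 35 arrays). With it, 5 differences among progenitors and monocytes were called. SatM were lower than inflammatory monocytes (-2.24, adjusted p = 0.0109), and SMP were higher than cMoP (1.16, adjusted p = 0.0162), where the first probe set had -0.57 (adjusted p = 0.358). SatM were lower than SMP (-1.47, adjusted p = 0.0299), inflammatory monocytes higher than cMoP (1.94, adjusted p = 0.0124), and GMP with MDP lower than cMoP (-2.11, adjusted p = 0.0151). Its eosinophil minus neutrophil difference was 2.94 (adjusted p = 0.000391). The direction of Ms4a6b between SMP and cMoP is therefore not settled.

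Ms4a6c separated the progenitors cleanly. It measured 9.51, 9.61, 10.14 and 10.18 in SMP, against 12.27, 12.32, 12.65 and 12.87 in cMoP, a difference of -2.66 ± 0.23 (SE, adjusted p = 1.40e-06). SatM, with 12.24 and 11.94, were above SMP by 2.20 ± 0.31 (adjusted p = 0.000119) and differed from inflammatory monocytes, with 12.75 and 12.62, by -0.59 (-1.30 to 0.12, adjusted p = 0.322). MDP had 11.80 and GMP 10.31. The granulocytes formed a ladder without overlap, at 9.47 and 8.64 in basophils, 6.69 and 6.14 in eosinophils and 2.91 and 2.74 in neutrophils. The differences from neutrophils were 6.23 ± 0.33 for basophils (adjusted p = 1.58e-08) and 3.59 ± 0.33 for eosinophils (adjusted p = 2.69e-06). A second probe set of Ms4a6c gave 1.02 (adjusted p = 0.157) and 0.10 (adjusted p = 1) for them, neither called, so the ladder rests on 1 probe set. For SMP minus cMoP the second probe set gave -2.75 and for SatM minus SMP 2.95, both called.

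In the panel, the first probe set of Ms4a6c was high in all monocyte and macrophage arrays. SatM had 11.82 to 12.33, other Ly6C-negative cells 12.92 and 12.54, lung macrophages 10.57 and 11.45 and M2-like macrophages 10.67 and 9.68. Msr1-negative cells had 10.64 in spleen, 7.60 in bone marrow and 7.80 in blood, and SatM lay above them by 3.17 ± 0.67 (SE, adjusted p = 0.0223). This call was lost, with differences of 2.56 to 2.90 and adjusted p of 0.0725 to 0.113, when the bone marrow or the blood array of either group was left out. The second probe set gave 0.97 (adjusted p = 0.527). Msr1-dull cells had 8.03 in bone marrow and 10.84 in lung.

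Ms4a6d, a gene known from macrophages, was highest in the lung. It measured 12.31 and 12.89 in lung macrophages, 11.73 in lung Msr1-dull cells and 12.58 in lung SatM, against 8.79 to 10.58 in SatM of the other tissues. Other Ly6C-negative cells had 11.04 and 11.40, and M2-like macrophages 8.94 in spleen and 10.08 in bone marrow. The Msr1-negative cells were near or at the floor, with 2.91, 2.36 and 2.30, and so was the bone marrow Msr1-dull array, with 2.68. SatM lay above Msr1-negative cells by 6.39 ± 0.99 (SE, adjusted p = 0.00686), and the second probe set that was above the floor gave 5.85 (adjusted p = 0.0068 over all probe sets). A further probe set was at the floor on all 35 arrays.

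In the first set, Ms4a6d had 9.03 and 9.45 in SatM, against 10.94 and 11.03 in inflammatory monocytes, a difference of -1.74 (-3.84 to 0.35, adjusted p = 0.319). SMP had 6.75, 7.96, 8.10 and 8.31, and cMoP 9.16, 9.03, 9.02 and, in 1 array titled WT, 5.41. With that array the SMP minus cMoP difference was -0.38 (adjusted p = 0.710), and without it -1.34 (adjusted p = 0.00714). GMP had 6.21 and MDP 6.35, below both basophil arrays. Basophils had 6.91 and 7.10, eosinophils 2.66 and 3.39, and neutrophils 2.32 and 2.30, with a basophil minus neutrophil difference of 4.70 ± 0.96 (adjusted p = 0.00164). The gene most like Ms4a6d over the 23 group means was Fcgr1 (r = 0.89), which encodes the high-affinity IgG receptor, then Pros1 (r = 0.87) and Dnase1l1 (r = 0.86).

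**Figure D3:**
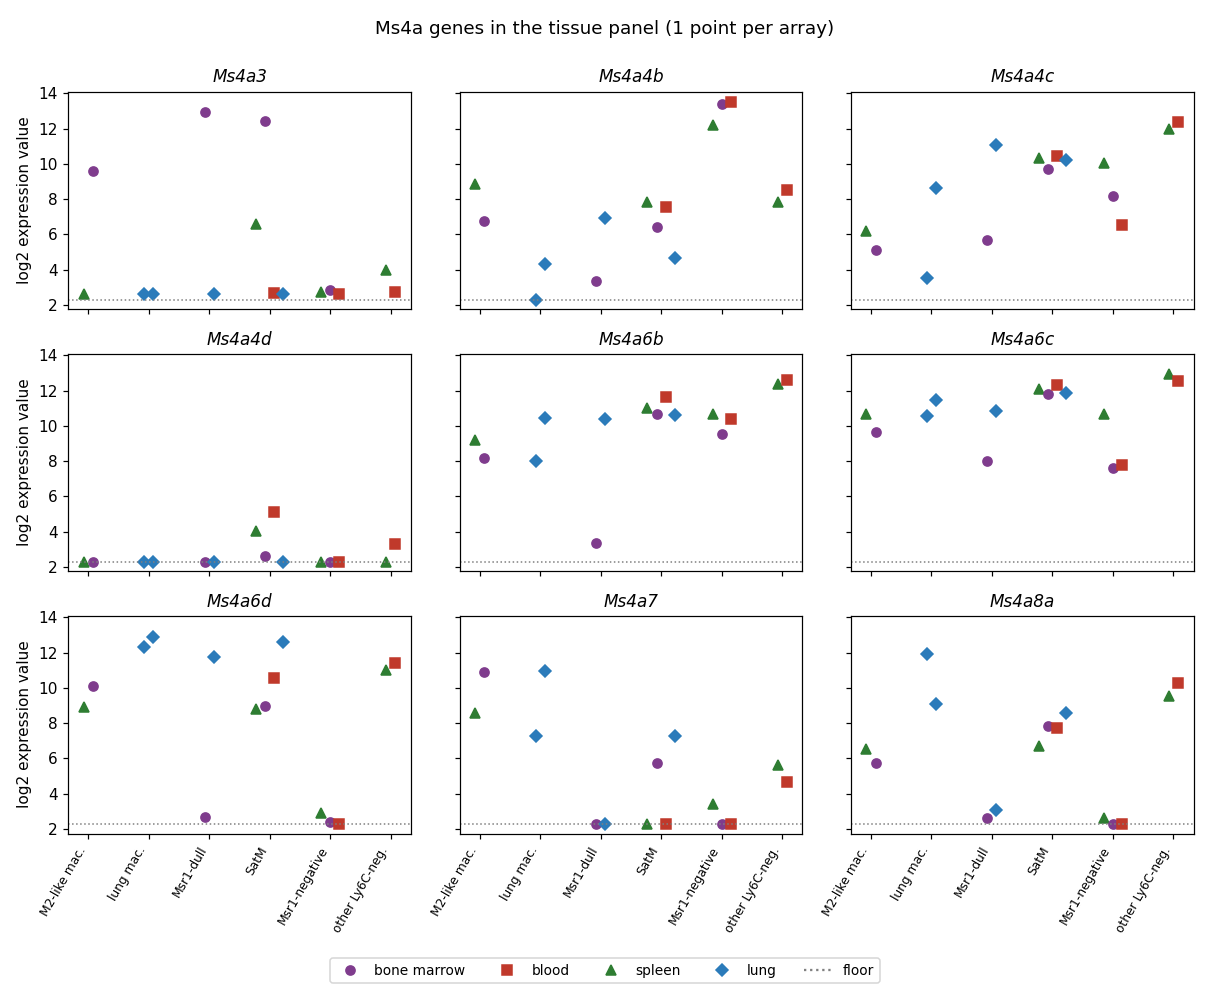
Log2 expression values (vertical axis) of the 9 members in the 15 panel arrays, with cell types along the horizontal axis and the tissue of each array shown by colour and shape. Ms4a4b is highest in the 3 Msr1-negative arrays (12.20 to 13.53), Ms4a6d is at 11.73 or higher in the 4 lung arrays, and Ms4a7 reaches 10.88 in bone marrow M2-like macrophages and 10.93 in 1 lung macrophage array.

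Ms4a7, a gene known from tissue macrophages, was nearly silent in the first set outside the inflammatory monocytes. These had 6.97 and 7.12, and SatM had 4.15 and 2.30, the second value being the floor. The difference for SatM minus inflammatory monocytes was -3.82 ± 0.46 (SE, adjusted p = 0.000144). All 4 cMoP arrays were at the floor, so inflammatory monocytes were at least 26.9-fold higher than cMoP (fitted difference 4.75, adjusted p = 8.14e-06). Among the other arrays of the first set, 1 neutrophil array had 3.51 and the rest were at 2.31 or lower.

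The panel held the high values of Ms4a7. M2-like macrophages had 8.59 in spleen and 10.88 in bone marrow, and lung macrophages 7.29 and 10.93. SatM differed by tissue, with 7.26 in lung, 5.71 in bone marrow and the floor in spleen and blood. Both Msr1-dull arrays were at the floor, and other Ly6C-negative cells had 5.65 and 4.63. M2-like macrophages lay above SatM by 5.56 ± 1.28 (SE, adjusted p = 0.0358), by 6.29 within spleen and by 5.17 within bone marrow, with no overlap of the arrays. The call was lost without either M2-like array or without the spleen, bone marrow or blood SatM array (adjusted p of 0.0817 to 0.224, differences of 4.83 to 6.01). The complement gene C1qa, a marker of tissue macrophages, was at 12.16 and 12.56 in the M2-like arrays, and at 7.67 in spleen SatM, 4.65 in bone marrow SatM, 2.35 in blood SatM and 11.07 in lung SatM. The 2 lung macrophage arrays had 2.45 and 11.76 for C1qa. Adgre1, from the same marker list, was also higher in the M2-like arrays, at 11.51 and 11.64, against 9.27 to 10.21 in the panel's SatM. In lung it differed from C1qa, with 10.16 and 10.48 in the macrophage arrays, against 9.50 in SatM. In the first set Adgre1 did not follow Ms4a7. It had 11.13 and 10.89 in SatM and 11.03 and 10.45 in eosinophils, above the 10.29 and 10.36 of inflammatory monocytes. The other genes of this marker list are not given here. Over the 23 group means the genes most like Ms4a7 were Pex11a (r = 0.92), Igf1 (r = 0.89) and Nectin4 (r = 0.87), of which Igf1 encodes a growth factor made by macrophages.

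Ms4a8a gave the widest gap between the monocyte types of the first set. It measured 2.61 and 2.30 in SatM, against 10.11 and 10.10 in inflammatory monocytes. The fitted difference of SMP minus cMoP was -2.99 ± 0.58 (SE, adjusted p = 0.00101), with 2.30, 2.30, 2.30 and 2.33 in SMP, against 2.56, 4.82, 6.58 and 7.23 in cMoP. The lower values of cMoP, 2.56 and 4.82, were the arrays titled WT. All 4 SMP arrays were at or next to the floor, so the difference is a bound on its size, and how it compares between the WT-titled and the other arrays cannot be read. In the WT-titled arrays fitted alone it was not called (adjusted p = 0.448). Inflammatory monocytes lay above cMoP by 4.001 ± 0.76 (adjusted p = 0.00284). The granulocytes, GMP and MDP were all at 2.61 or lower.

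SatM of the tissue panel did not share the low Ms4a8a of the first set. They had 6.71 in spleen, 7.82 in bone marrow, 7.75 in blood and 8.56 in lung, so that the bone marrow array of the panel was more than 5 log2 units above the 2.61 and 2.30 of the first set. The panel's SatM arrays also had higher classical monocyte genes, with list means of 10.40 to 11.77, against 7.90 and 7.87 in the first set, and higher Msr1, with 8.24 to 11.09, against 7.45 and 6.47. With the panel's bone marrow array added to the first set, SatM minus inflammatory monocytes was -5.86 (adjusted p = 0.0136), and Ms4a7 was -2.995 (adjusted p = 0.0112). Whether the panel and the first set were sorted with the same gate is not given in the sources used here.

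Within the panel, Ms4a8a was high in SatM, lung macrophages (11.91 and 9.07), other Ly6C-negative cells (9.53 and 10.26) and M2-like macrophages (6.55 and 5.76), and low in Msr1-dull (2.61 and 3.08) and Msr1-negative cells (2.61, 2.30 and 2.30). SatM lay above Msr1-negative cells by 5.09 ± 0.69 (SE, adjusted p = 0.00400). Msr1-dull cells minus SatM differed by -5.07 ± 0.82 (adjusted p = 0.0650), which was not called. For SatM minus other Ly6C-negative cells the difference was -2.39 (-4.28 to -0.51, adjusted p = 0.535). Over the 23 group means the gene most like Ms4a8a of all genes set against it was Msr1 (r = 0.95), the scavenger receptor that the study used to gate the panel, followed by Sh3tc1 (r = 0.88) and Vcan (r = 0.85). The panel groups therefore share their choice by Msr1 with this likeness. In the first set, Msr1 was likewise lower in SatM, at 7.45 and 6.47, than in inflammatory monocytes, at 10.76 and 10.94.

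Read as a group, most members were higher in the mature monocytes than in the granulocytes. The monocytes came from bone marrow and the granulocytes from spleen, so cell type and tissue cannot be told apart here. For SatM together with inflammatory monocytes against the mean of basophils, eosinophils and neutrophils, 7 of 8 tested members were higher and 1, Ms4a3, was lower, where 31.3% of all tested genes were called in either direction, 15.5% higher and 15.8% lower. The median difference of the members was 3.86, against -0.02 over all tested genes. The largest were Ms4a4c (6.82), Ms4a6c (6.29), Ms4a6d (6.00) and Ms4a6b (5.77), with adjusted p of 5.88e-06 or lower, and Ms4a3 was at -6.23 (adjusted p = 6.46e-07). For Ms4a3, Ms4a4b, Ms4a7 and Ms4a8a the arrays of both sides overlapped: for Ms4a3, 1 neutrophil array (5.88) lay below the higher SatM array (5.95), basophils were high for Ms4a4b, and SatM were low for Ms4a4b, Ms4a7 and Ms4a8a.

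Within the granulocytes, 6 of 8 tested members were higher in basophils than in neutrophils and 0 were lower, where 37.4% of the tested genes passed, 21.9% upward and 15.6% downward. In eosinophils against neutrophils, 3 of 8 were higher, namely Ms4a3 (5.34), Ms4a6b and Ms4a6c, where 40.5% of the tested genes passed, 23.1% upward and 17.4% downward. Primary granule genes averaged 9.75 and 9.46 in basophils, 11.15 and 11.05 in eosinophils and 3.02 and 5.42 in neutrophils, in the direction of Ms4a3, and their part in that result was not tested. Between SMP of bone marrow and basophils of spleen, which share Ms4a2 at 12.95 to 13.66 in SMP and 13.80 in both basophil arrays, 0 of 8 members were called, where 2.85% of all genes were, 0.753% higher and 2.09% lower. At an unadjusted p under 0.05 the differences were those of Ms4a4b (1.27), Ms4a4c (-1.76) and Ms4a6c (0.84).

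For SatM minus inflammatory monocytes, 4 of 8 tested members were lower and 0 higher, where 9.34% of the tested genes passed, 2.87% upward and 6.47% downward. The median difference of the members was -1.74, against -0.02 over all tested genes. For SMP minus cMoP, 3 of 8 were lower and 0 higher (35.5% of all genes called, 12.8% higher and 22.7% lower), and the median was -0.42, against -0.09 over all. The share of members called was close to that of all genes in this comparison. For SatM minus SMP, 2 of 8 were higher and 2 lower (26.8% called, 12.8% higher and 14% lower). For inflammatory monocytes minus cMoP, 2 of 8 were higher and 1 lower (14.9% called, 6.62% higher and 8.25% lower). These comparisons share groups, so their counts are not separate evidence.

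**Figure D4:**
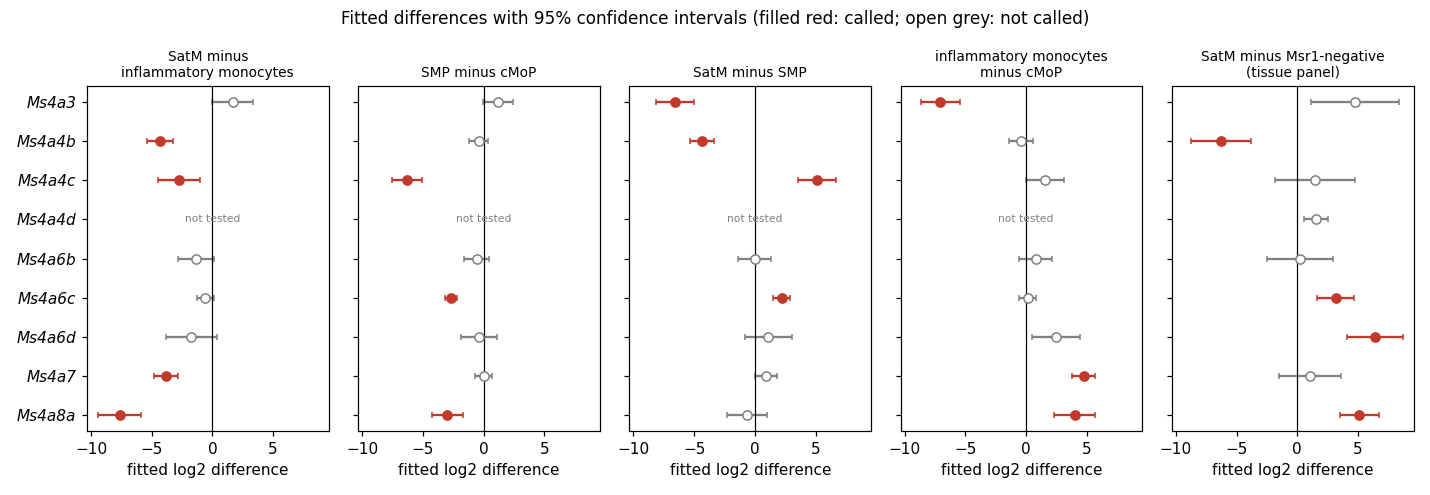
Fitted log2 differences (horizontal axis) with 95% confidence intervals for the 9 members (rows) in 5 comparisons, filled red where called and open grey where not. Ms4a8a has the largest difference for SatM minus inflammatory monocytes (-7.65), Ms4a4c the largest for SMP minus cMoP (-6.32), and Ms4a3 the largest for SatM minus SMP (-6.58).

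Against cMoP, the mean of GMP and MDP had 4 of 8 members lower, namely Ms4a4b (-1.89), Ms4a4c (-2.98), Ms4a6c (-1.50) and Ms4a8a (-3.65), where 6.22% of the tested genes passed, 2.87% upward and 3.35% downward. Each of these cell types had 1 array. Without the GMP array 0 members were called, without cMoP array 1 it was 1 and without cMoP array 2 it was 2, and for Ms4a4b, Ms4a4c and Ms4a8a the arrays of the groups overlapped. MDP is placed between GMP and cMoP in a common scheme of monocyte development. Its values lay between those of GMP and the cMoP mean for Ms4a3, Ms4a4b, Ms4a4c, Ms4a6b, Ms4a6c and Ms4a6d, as single arrays with no test. Ms4a8a had the same order, but with GMP at the floor of 2.30 and MDP near it at 2.61. The share of all genes with this order was not counted. For Ms4a6d the values of GMP and MDP were close, at 6.21 and 6.35.

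In the tissue panel, SatM against Msr1-negative cells had 3 of 9 members higher and 1 lower, where 10.2% of the tested genes passed, 4.94% upward and 5.28% downward. Without the blood SatM array 2 were called. The 9 members of this and the other panel comparisons include Ms4a4d, which was called in none of them. Its differences from SatM are not read as tests, as said above. M2-like macrophages against SatM had 1 of 9 higher and 0 lower (8.31% called, 5.39% higher and 2.92% lower). Lung macrophages against SatM had 0 of 9 called in limma, where 0.239% of all genes were (0.128% higher and 0.111% lower), with Ms4a4c at -5.52 the only member at an unadjusted p under 0.05. The fit took the 2 lung macrophage arrays, which were titled differently, as 1 cell type, so the difference between them counts as error. All lung macrophages came from lung, so the fit needs the other lung arrays to set them against SatM. Without the lung SatM array it does so only through the lung Msr1-dull array, by way of the tissue term, and its calls for Ms4a4b, Ms4a6b and Ms4a6d then carry no direct comparison. For Ms4a6d the fitted value without that array was -5.83, while the arrays themselves run the other way, with 12.31 and 12.89 in lung macrophages, against 8.79, 8.99 and 10.58 in the remaining SatM. Msr1-dull cells against SatM had 0 of 9 (0.256% called, 0.102% higher and 0.153% lower), with 5 members lower at an unadjusted p under 0.05. Without lung SatM, or without lung Msr1-dull cells, Ms4a6b (-7.16), Ms4a6d (-6.70) and Ms4a8a (-4.75) were called, with the same values both times. These rest on the single bone marrow Msr1-dull array, assumed to vary like the other groups. In lung, Ms4a6b had 10.40 in Msr1-dull cells, against 10.59 in SatM, and Ms4a6d had 11.73, against 12.58. SatM against other Ly6C-negative cells had 0 of 9 (0.0682% called, 0.00852% higher and 0.0597% lower), with Ms4a8a (-2.39) at an unadjusted p under 0.05.

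Across the 23 group means, the members fell into more than 1 pattern, given here as a description with no test, since many groups hold 1 array. Ms4a6b and Ms4a6c were the most alike pair (r = 0.84), followed by Ms4a4c with Ms4a6c (r = 0.80), Ms4a6d with Ms4a8a (r = 0.77), Ms4a4c with Ms4a6b (r = 0.76) and Ms4a6c with Ms4a6d (r = 0.75). The neighbours Ms4a4b and Ms4a4c, the pair with the most alike promoter windows shown above, had r = 0.31. Ms4a3, at the end of the cluster, had an r below 0 with each of the 8 others, from -0.22 to -0.44. The genes most like Ms4a4b were Nsmaf (r = 0.88), Rapgef1 and Nfrkb (both r = 0.84). Those most like Ms4a6b were Limd1 (r = 0.89), Eif3h and Rpl7a (both r = 0.88), and those most like Ms4a6c were Ccdc88a and Tspan31 (both r = 0.89) and Ccdc50 (r = 0.88). For Ms4a4d they were Gm14169, Pipox and AF067061 (r of 0.88 to 0.91), over groups that were nearly all at the floor.

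Of 13 other genes of the wider family, 9 were on the array with a single symbol. Ms4a1 was at the floor on 23 arrays and was highest in spleen SatM (10.15), other Ly6C-negative cells of spleen (9.80) and spleen M2-like macrophages (9.56). Ms4a10, Ms4a18 and Ms4a20 were at the floor on all 35. In SatM against inflammatory monocytes, 0 of the 5 tested were higher and 2 lower, namely the related membrane protein genes Tmem176a (-3.39, adjusted p = 0.0237) and Tmem176b (-3.94, adjusted p = 0.00209). Tmem176b measured 7.18 and 7.35 in SatM, against 11.14 and 11.25 in inflammatory monocytes. In SMP against cMoP, 2 of 5 were lower, again Tmem176a (-3.34, adjusted p = 0.000629) and Tmem176b (-6.26, adjusted p = 3.93e-07), and 1 was higher, Ms4a2. Tmem176b was also higher in SatM than in SMP (3.50, adjusted p = 0.000857), as Ms4a4c and Ms4a6c were.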

How the data were processed

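Each Affymetrix array came with 1 value for every probe set, deposited on what was read here as a log2 scale. How the authors made these log2 values from the scans is not given in the sources used here. The base was taken to be 2 because values span 2.30 to 16.02, and arrays had near-equal distributions.

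Of 45101 probe sets, 64 controls, 9160 without a symbol and 932 with several were left out. The 34945 others, 34741 of them matched to RefSeq by Entrez identifier, gave 18193 genes, each read by its brightest probe set on average. Arrays have no depth, so their number limits the precision. Groups came from titles. limma 3.58.1 in R 4.3.3 was fitted, with eBayes and a mean trend, to 12077 genes on 20 arrays (cell type, and 1 term for arrays titled WT) and to 11734 genes on 15 panel arrays (cell type and tissue), with 10 and 6 residual degrees of freedom. A gene was kept if it lay above the median of all probe sets in at least 2 arrays of the model. This kept 8 members in the first fit and 9 in the second. Because of the added terms, fitted differences need not equal differences of means. The fit was tested on simulated data.

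The members, lists and tests were chosen with earlier results of these data known. All members are named. For each, the 3 most alike other genes were taken by Pearson r over 23 group means. A marker gene counts as present over 6. Promoters were aligned globally with Biopython 1.88. Same-numbered arrays were not treated as pairs, since the correlations of their deviations were -0.05 to 0.23. Alternatives covered normalisation, filter, probe set choice, groups fitted, trend, robust fit, fold threshold, the replicate block, the WT and tissue terms, 1 added SatM array and leaving out each array.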

Additional observations from a re-analysis of the deposited data

Results flagged for a closer look

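Ms4a6d in the cMoP arrays had 1 array far from the others, with 5.41 in cMoP WT array 1 against 9.02 to 9.16 in the other 3. Its gap was 0.963 of the range of the 4 arrays. Ms4a8a in SMP had 1 array at 2.33 with the other 3 at 2.30, a gap that is small in size. The cut-off passes about 1 in 20 groups of normally spread replicates, and these values were 2 of 24 tests. With the other 3 SMP arrays tied at the floor, any differing value of Ms4a8a would have been flagged. Tests over the panel's SatM set different tissues together, so the rate of 1 in 20 need not hold.

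Ms4a4b differed in direction between tissues for Msr1-dull cells minus SatM, at -3.06 in bone marrow and 2.26 in lung, with 1 array on each side. Ms4a7 did so for SatM minus Msr1-negative cells, at 3.41 in bone marrow and -1.08 in spleen. Neither difference between tissues was tested.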

How the results depend on the processing

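Of 40 member differences that were called, 24 stayed called in the same direction under every alternative run, 16 were lost under at least 1 and 0 reversed. Of 77 that were tested and not called, 20 were called under at least 1. Both of these numbers include Ms4a4d in the panel, whose differences from SatM are not read as tests. With every probe set fitted, a gene counted as called if any 1 of them was, so that alternative could hardly lose a call. The 24 include Ms4a6c in basophils and in eosinophils against neutrophils, though its second probe set gave 1.02 and 0.10, neither called. They also include Ms4a4b for SatM against inflammatory monocytes, where its second probe set was at the floor. Counts of members called moved as follows. With only the compared groups fitted, GMP and MDP against cMoP had 1 (from 4), SatM against Msr1-negative cells 0 (from 4, with 5 members at an unadjusted p under 0.05 and 0 of all genes called in limma) and M2-like macrophages against SatM 0 (from 1). The last was also 0 with no filter and 0 with no tissue term. Msr1-dull cells against SatM had 1 with a filter at the 60th percentile and 1 with no tissue term (from 0). GMP and MDP against cMoP had 1 with no WT term and 2 with the replicate block (from 4), and SMP against cMoP had 1 in the WT-titled arrays alone (from 3). The replicate block moved no other count by over 1.5 times, but with it Ms4a4c between SatM and inflammatory monocytes was not called (adjusted p = 0.0549).

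Leaving out 1 array gave 3 to 3 members for SatM against inflammatory monocytes, 3 to 4 for SMP against cMoP, 4 to 5 for SatM against SMP, 3 to 4 for inflammatory monocytes against cMoP, 0 to 5 for GMP and MDP against cMoP and 0 to 1 for SMP against basophils. It gave 8 to 8 for monocytes against granulocytes, 6 to 6 for basophils against neutrophils and 2 to 3 for eosinophils against neutrophils. In the panel it gave 2 to 4 for SatM against Msr1-negative cells, 0 to 0 for SatM against other Ly6C-negative cells, 0 to 1 for M2-like macrophages, 0 to 3 for lung macrophages and 0 to 3 for Msr1-dull cells against SatM. The cause of these moves was not tested. In simulated data with the group sizes of SatM against inflammatory monocytes, 56% of genes changed by 2 log2 units and 92% of those changed by 4 were called, out of 12077 genes. With those of SatM against Msr1-negative cells it was 25% and 78%, out of 11733 genes. The simulated panel had no tissue effect, and its spread was taken around cell type means, so differences between tissues counted as spread. Its shares therefore need not hold for the real panel, which was fitted with a tissue term.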
